A study of Mus musculus with 6 samples.

Results

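The genes for serotonin receptors were compared between VMHpvlm and VMHpvll, neighbouring parts of the ventrolateral ventromedial hypothalamus (VMH), in female mice. The 10 members, Htr1a, Htr1b, Htr1d, Htr1f, Htr2a, Htr2c, Htr3a, Htr4, Htr5a and Htr7, were chosen by symbol from the 47480 genes of the deposited table, and all 10 were found. Both VgluT2-cre and an Ai6 reporter were present in every animal, in which a cre driven from the VgluT2 (Slc17a6) gene switches on a green fluorescent protein. Both regions were cut by laser capture microdissection from frozen coronal sections, and total RNA of the captured tissue was sequenced. The sources used here do not say that cells were selected by the reporter, and give neither the age of the mice nor whether animals were pooled. There were 6 libraries, 3 per region, and each title carries 1 of 3 names (F19, F20, KH_161103) that recur in both regions. Whether libraries of 1 name come from the same animal is not said in the labels, and every p-value here reflects only how these libraries scatter.

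Serotonin reaches the hypothalamus in fibres of neurons whose cell bodies lie in the raphe nuclei of the brainstem, and acts there on receptors of several families. Receptors of the Htr1 and Htr5 families couple to Gi/o proteins, which lower cAMP and open inwardly rectifying potassium channels. Receptors of the Htr2 family couple to Gq and phospholipase C, those of the Htr4, Htr6 and Htr7 families couple to Gs, which raises cAMP, and Htr3a encodes a subunit of a cation channel. In the hypothalamus these receptors are known for their part in feeding, energy balance and sexual behaviour.

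Of the 8 members that were tested, 4 were called higher in VMHpvlm and 0 were called higher in VMHpvll: Htr1b, Htr1d, Htr2c and Htr5a. The other 4 tested members, Htr1a, Htr2a, Htr4 and Htr7, were not called, and Htr1f and Htr3a were too low to test. Values are normalised read counts, and a gene was tested where its mean across libraries was 10 or more. The test was limma on log2(value + 1) with the shared name as a block, and a gene was called at a Benjamini-Hochberg adjusted p below 0.05 over all 14522 tested genes. Among all tested genes, 10.5% were called toward VMHpvlm and 9.48% toward VMHpvll (1528 and 1377 genes). At an unadjusted p below 0.05 the counts of members were also 4 and 0. Of the same 8 members, edgeR called 4 toward VMHpvlm and DESeq2 called 1, Htr1b, and both called 0 toward VMHpvll. The count was 2, Htr1b and Htr2c, without the KH_161103 libraries.

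The stretches before the transcription starts of the 4 called genes are shown because these members were called in the same direction. The regions also differ in the transcription factor Nr5a1 and in the oestrogen receptor Esr1. Control of these genes by either factor was not tested. Each is the 250 bases upstream of the first RefSeq start, read 5′ to 3′ on the gene's own strand, on build GRCm38.p6, the assembly also called mm10. Capitals mark AGGTCA, the nuclear receptor half-site, on either strand.
Htr1b, chr9:81633833-81634082 (minus strand): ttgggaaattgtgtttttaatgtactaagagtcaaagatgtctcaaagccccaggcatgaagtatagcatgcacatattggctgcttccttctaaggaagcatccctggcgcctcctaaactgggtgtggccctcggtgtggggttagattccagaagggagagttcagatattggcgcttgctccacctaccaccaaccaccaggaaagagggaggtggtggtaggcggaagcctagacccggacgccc
Htr1d, chr4:136423274-136423523 (plus strand): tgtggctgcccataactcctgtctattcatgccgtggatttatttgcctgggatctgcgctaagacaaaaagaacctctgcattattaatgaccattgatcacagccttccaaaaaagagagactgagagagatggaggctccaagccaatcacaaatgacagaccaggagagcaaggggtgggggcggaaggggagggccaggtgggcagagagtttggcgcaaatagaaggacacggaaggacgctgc
Htr2c, chrX:146962263-146962512 (plus strand): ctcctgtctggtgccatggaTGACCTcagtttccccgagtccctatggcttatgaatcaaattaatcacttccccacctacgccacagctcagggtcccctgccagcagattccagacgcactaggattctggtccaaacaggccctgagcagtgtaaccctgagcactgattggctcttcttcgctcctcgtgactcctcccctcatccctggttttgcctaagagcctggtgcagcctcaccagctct
Htr5a, chr5:27841697-27841946 (plus strand): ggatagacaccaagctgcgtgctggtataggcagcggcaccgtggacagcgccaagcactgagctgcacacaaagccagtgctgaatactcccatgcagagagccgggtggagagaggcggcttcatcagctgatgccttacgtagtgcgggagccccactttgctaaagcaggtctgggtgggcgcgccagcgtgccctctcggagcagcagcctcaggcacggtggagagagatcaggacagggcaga
The search covered 300 bases, from 250 before to 50 after each start, on both strands. Windows were matched by symbol for 8 of the 10 members, all but Htr3a and Htr4. The motif of Nr5a1, AAGGTCA, which contains the half-site, was in none of the windows of these 8 members, and 4.72% of all 32851 promoter windows held it. The full oestrogen response element, GGTCA and TGACC set 3 bases apart, and the cAMP response element, TGACGTCA, were also in none of them, and were in 0.07% and 1.79% of all windows. Among the members the half-site was found in Htr2c alone, 230 bases before its start and read on the opposite strand, and 16.3% of all windows held it.

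Htr1b, a Gi/o-coupled receptor that sits on axon terminals and lowers transmitter release, had the firmest difference of the members. It stood at 251, 312 and 273 normalised reads in the F19, F20 and KH_161103 libraries of VMHpvlm, and at 153, 176 and 125 in those of VMHpvll. The lowest VMHpvlm library lay above the highest VMHpvll library, and VMHpvlm was higher in 3 of 3 pairs. Levels of the regions did not overlap in 28.0% of all tested genes, in 14.5% with VMHpvlm above and in 13.5% with VMHpvll above. The means were 279 ± 31.2 and 151 ± 25.4 (SD, n = 3), so that VMHpvlm was 1.84-fold higher (log2 difference 0.89 ± 0.11 SE; limma, Benjamini-Hochberg adjusted p = 2.47e-08). Between 118 and 301 recovered reads per library lay behind these values. The call was lost in 1 of 15 alternatives, when the variance prior was fitted without trend or robust (adjusted p = 0.0511, the highest of a range from 1.32e-12).

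Htr1b lies on chromosome 9 from 81628291 to 81633828 (mm10) as a protein-coding gene, and 852 bases of its exons, 18.0% of their length, are shared with D430036J16Rik, an antisense gene. No other member shares exon bases with another gene. Since no source used here gives the strand setting of the counting, reads of these genes cannot be told apart over that stretch. D430036J16Rik was itself higher in VMHpvlm, at 74.5, 45.8 and 37.2 against 24.2, 28.3 and 15.5 in the F19, F20 and KH_161103 libraries (log2 difference 1.16 ± 0.26 SE; limma, Benjamini-Hochberg adjusted p = 0.000753). The part of its reads in the Htr1b difference was not tested.

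Htr1d, the closest relative of Htr1b and likewise Gi/o-coupled, had the largest fold among the tested members and the fewest reads. Its VMHpvlm libraries were at 23.0, 33.3 and 37.2 and its VMHpvll libraries at 14.3, 13.4 and 12.8. The groups did not overlap, and the VMHpvlm libraries were spread more widely than those of VMHpvll. At 31.2 ± 7.34 against 13.5 ± 0.758 (SD, n = 3), the gene was 2.31-fold higher in VMHpvlm (log2 difference 1.13 ± 0.33 SE; limma, Benjamini-Hochberg adjusted p = 0.00929). These levels rested on 9 to 41 recovered reads per library. The call was lost with DESeq2 (adjusted p = 0.207), without the KH_161103 libraries (limma adjusted p = 0.154) and without trend or robust (0.0782), over a range of 0.00660 to 0.207. Htr1d lies on chromosome 4 from 136423524 to 136444398.

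Htr5a, the third Gi/o-coupled receptor that was higher in VMHpvlm, had values of 187, 208 and 243 there and of 170.4, 159 and 162 in VMHpvll. All VMHpvlm libraries were above all VMHpvll libraries, but the gap in the F19 pair was narrow, at a log2 difference of 0.13, against 0.38 in F20 and 0.58 in KH_161103. The means were 213 ± 28.5 and 164 ± 5.68 (SD, n = 3), 1.30-fold higher in VMHpvlm (log2 difference 0.37 ± 0.12 SE; limma, Benjamini-Hochberg adjusted p = 0.0196). This was the least firm of the calls: adjusted p was 0.0626 without the block, 0.0690 with libraries scaled to the same pan-neuronal sum, 0.316 without the KH_161103 libraries, 0.319 with DESeq2 and 0.179 without trend or robust, over a range from 0.00708. Htr5a lies on chromosome 5 from 27842149 to 27855088.

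Htr1a, the Gi/o-coupled receptor found both on serotonin neurons themselves and on their targets, showed no common direction. Its VMHpvlm libraries were at 131, 158 and 123 and its VMHpvll libraries at 101, 171 and 182. F19 was higher in VMHpvlm, and F20 and KH_161103 were higher in VMHpvll. The fitted log2 difference was -0.10, with a 95% interval from -0.39 to 0.19 (limma, Benjamini-Hochberg adjusted p = 0.698). That interval does not reach the 0.89 of Htr1b. Htr1a lies on chromosome 13 from 105443639 to 105448122. Htr1f, another Gi/o-coupled receptor, rested on 2 to 4 recovered reads per library, at 4.06, 5.55 and 3.63 against 3.30, 2.98 and 3.65, and was not tested.

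Because the ratio of 2 genes within a library does not change with the scaling between libraries, members were also set against each other. The ratio of Htr1b to Htr1a was 1.91, 1.97 and 2.23 in VMHpvlm and 1.51, 1.03 and 0.688 in VMHpvll. The ratio of Htr1b to Htr7 was 0.438, 0.536 and 0.449 against 0.310, 0.238 and 0.183. Neither ratio overlapped between the regions, and both were higher in VMHpvlm in 3 of 3 pairs. The ratios of Htr1d to Htr1a and of Htr2c to Htr7 did not overlap either, whereas those of Htr5a to Htr1a and of Htr2c to Htr2a did. Each of these 6 ratios sets a gene called toward VMHpvlm over one that was not called. They thus describe the same pattern on another scale. An exact permutation test of 3 against 3 libraries cannot give a p below 0.1, so no conclusion was drawn from it.

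**Figure D1:**
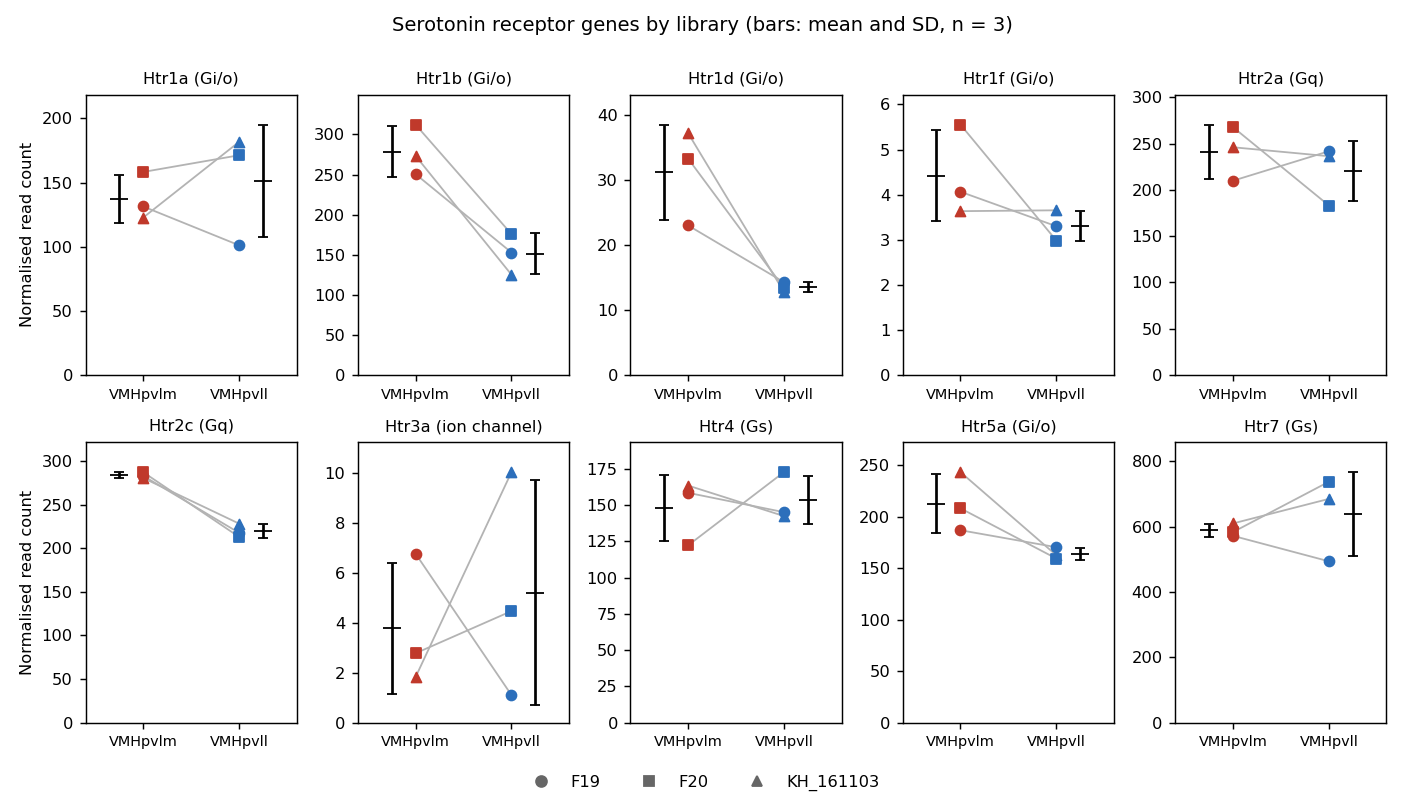
Normalised read counts (linear axes from 0) of the 10 serotonin receptor genes in each library, with a grey line between the libraries of each name and black bars at the mean and SD of 3 libraries. Htr1b, Htr1d, Htr2c and Htr5a were higher in VMHpvlm (red) than in VMHpvll (blue) in 3 of 3 pairs without overlap, and the lines of the other 6 genes do not all slope the same way.

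Htr2c, a Gq-coupled receptor of hypothalamic neurons that is known for the restraint of feeding, varied little between libraries of a region. It was at 283, 287 and 281 in VMHpvlm and at 218, 213 and 228 in VMHpvll. The regions did not overlap. With 143 to 309 recovered reads per library, counting error alone is larger than the spread seen within either region. That spread is therefore no measure of the gap. The means were 284 ± 3.38 and 219.6 ± 7.82 (SD, n = 3), 1.29-fold higher in VMHpvlm (log2 difference 0.37 ± 0.10 SE; limma, Benjamini-Hochberg adjusted p = 0.00518). Log2 differences in the F19, F20 and KH_161103 pairs were 0.38, 0.43 and 0.30. The call held without each pair, at adjusted p = 0.0271, 0.0212 and 0.0355 without F19, F20 and KH_161103, and was lost with DESeq2 (adjusted p = 0.191) and without trend or robust (0.0893), over a range of 0.00247 to 0.191. Htr2c lies on chromosome X from 146962513 to 147197277.

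Htr2a, the other Gq-coupled member, did not differ in 1 direction. VMHpvlm was at 209.9, 268 and 246 and VMHpvll at 242, 183 and 236. In the F20 pair it was higher in VMHpvlm by 0.55 on the log2 scale, in F19 higher in VMHpvll, and in KH_161103 nearly level. The fitted log2 difference was 0.13, with a 95% interval from -0.10 to 0.36 (limma, Benjamini-Hochberg adjusted p = 0.477). The upper end of that interval lies close to the 0.37 of Htr2c, and the ratio of Htr2c to Htr2a within libraries overlapped between the regions. Htr2a lies on chromosome 14 from 74640840 to 74709494.

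Htr7, a Gs-coupled receptor, was the most abundant member in both regions and was not called. It was at 572, 583 and 609 in VMHpvlm and at 494, 737 and 685 in VMHpvll. The VMHpvlm libraries were close to each other, and the F19 library of VMHpvll was lower and the other two higher than all of them. The fitted log2 difference was -0.10, with a 95% interval from -0.26 to 0.06 (limma, Benjamini-Hochberg adjusted p = 0.437). Without the F19 libraries it was -0.25 and was called toward VMHpvll (adjusted p = 0.0187, the lowest of a range up to 0.897), and without the F20 libraries it was 0.022. Htr7 lies on chromosome 19 from 35958734 to 36057507.

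Htr4, likewise Gs-coupled, was at 158, 122 and 163 in VMHpvlm and at 145, 173 and 142 in VMHpvll. Here the F20 pair was lower in VMHpvlm and both other pairs were slightly higher. The fitted log2 difference was -0.06, with a 95% interval from -0.33 to 0.21 (limma, Benjamini-Hochberg adjusted p = 0.832). Htr3a, the channel subunit, had 1 to 11 recovered reads per library, at 6.77, 2.78 and 1.82 against 1.10, 4.47 and 10.04, and was not tested.

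**Figure D2:**
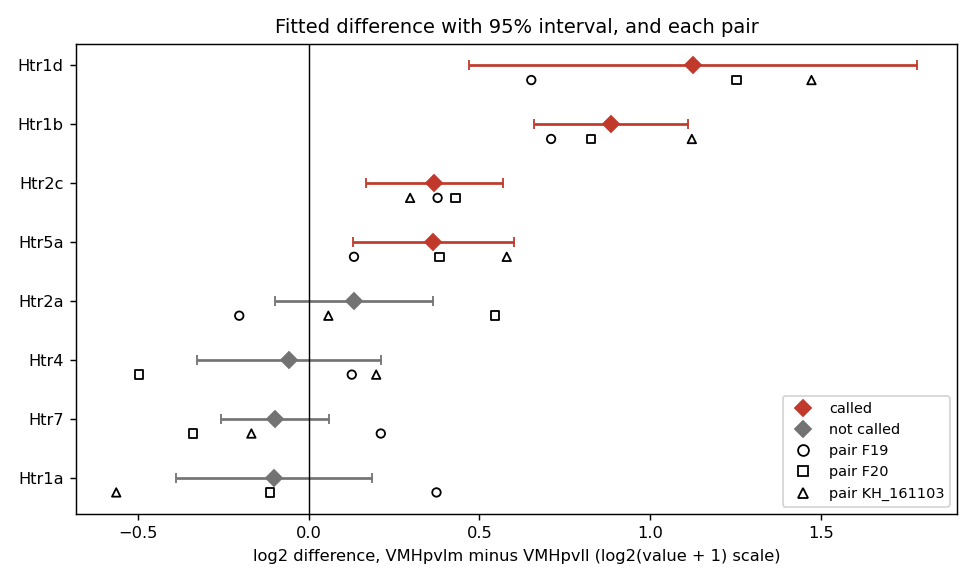
Fitted log2 difference (VMHpvlm minus VMHpvll, log2(value + 1) scale) of the 8 tested members, with 95% intervals (diamonds, red where called) and the difference in each pair (open symbols). The intervals of Htr1d, Htr1b, Htr2c and Htr5a lie above 0, and those of Htr2a, Htr4, Htr7 and Htr1a hold 0.

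Divided by exon length, which allows levels of different genes to be compared, Htr7 stood well above the rest, at 173 ± 5.72 normalised reads per kb of exon in VMHpvlm and 188 ± 37.7 in VMHpvll (SD, n = 3). In VMHpvlm it was followed by Htr1b at 59.0 ± 6.61, which lay above Htr2a (43.0 ± 5.22) without overlap. Htr5a (39.6 ± 5.31), Htr1a (30.6 ± 4.14), Htr2c (30.4 ± 0.362) and Htr4 (30.2 ± 4.60) came next, and the libraries of each neighbouring pair in the order from Htr2a to Htr4 overlapped. In VMHpvll the second place was held by Htr2a at 39.3 ± 5.78, and Htr1a (33.8 ± 9.77), Htr1b (32.0 ± 5.37), Htr4 (31.3 ± 3.42) and Htr5a (30.5 ± 1.06) followed with overlapping ranges. Htr2c, at 23.5 ± 0.838, lay below Htr5a in VMHpvll without overlap. On this scale Htr1b was thus set apart from Htr2a and Htr1a in VMHpvlm and overlapped them in VMHpvll. Before division by length, Htr1b (251, 312 and 273) and Htr2a (209.9, 268 and 246) overlapped in VMHpvlm. In VMHpvll, Htr1b was then below Htr2a (153, 176 and 125 against 242, 183 and 236). The order of Htr1b and Htr2a thus depends on the exon length used, and 18.0% of that of Htr1b is shared with D430036J16Rik. Htr1d was at 9.74 ± 2.29 and 4.21 ± 0.237 per kb, and Htr3a and Htr1f were below 3 in both regions on average.

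The 4 other serotonin receptor genes of the mouse were near or at 0. Htr6, which is Gs-coupled, was at 9.25 ± 3.59 in VMHpvlm and 6.95 ± 3.90 in VMHpvll (SD, n = 3), with 3 to 14 reads per library. Htr5b had 0 to 2 reads per library and Htr2b 0 or 1, and exons of Htr2b overlap those of Psmd1. Htr3b, the partner subunit of Htr3a, had 0 reads in all 6 libraries, which allows up to 3 reads per library, or between 0.266 and 0.419 CPM.

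The 14 receptor genes together summed to 424 ± 18.9 normalised reads per kb in VMHpvlm and 389.9 ± 45.0 in VMHpvll (SD, n = 3), and these totals overlapped between the regions (402 to 437 against 339 to 425), though VMHpvlm was higher in 3 of 3 pairs: 402 against 339 in F19, 432 against 425 in F20 and 437 against 406 in KH_161103. The make-up of the sum also differed. Gi/o-coupled receptors held 31.5%, 35.5% and 33.0% of it in the F19, F20 and KH_161103 libraries of VMHpvlm, and 27.6%, 26.0% and 25.3% in those of VMHpvll. Gs-coupled receptors held 50.9%, 46.0% and 49.9% against 52.5%, 60.4% and 57.0%. The Gi/o share was higher in VMHpvlm and the Gs share higher in VMHpvll in 3 of 3 pairs, and neither overlapped between the regions. Gq-coupled receptors held 17.3 ± 0.746% and 16.4 ± 3.34%, with overlap, and the channel subunits 0.439 ± 0.325% and 0.616 ± 0.525%. The share of Htr1b alone was 13.9 ± 1.20% in VMHpvlm and 8.27 ± 1.57% in VMHpvll. Without Htr1b, the Gi/o share was 22.5 ± 1.40% against 19.6 ± 0.640%, still higher in VMHpvlm in 3 of 3 pairs, a comparison chosen after the shares were seen. The Gs share without Htr1b was 58.6%, 54.3% and 57.5% against 58.1%, 66.2% and 61.0%, so the F19 pair turned and the regions overlapped: the separation of the Gs share rested on Htr1b in the sum. Htr1b, Htr1d and Htr5a, which were called toward VMHpvlm, belong to the Gi/o class, so its higher share there largely restates those calls. Shares of a common sum also move against each other. These shares are descriptions. Floors on reads cover counting error only, and the intervals of the limma fits reflect only how these libraries scatter.

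**Figure D3:**
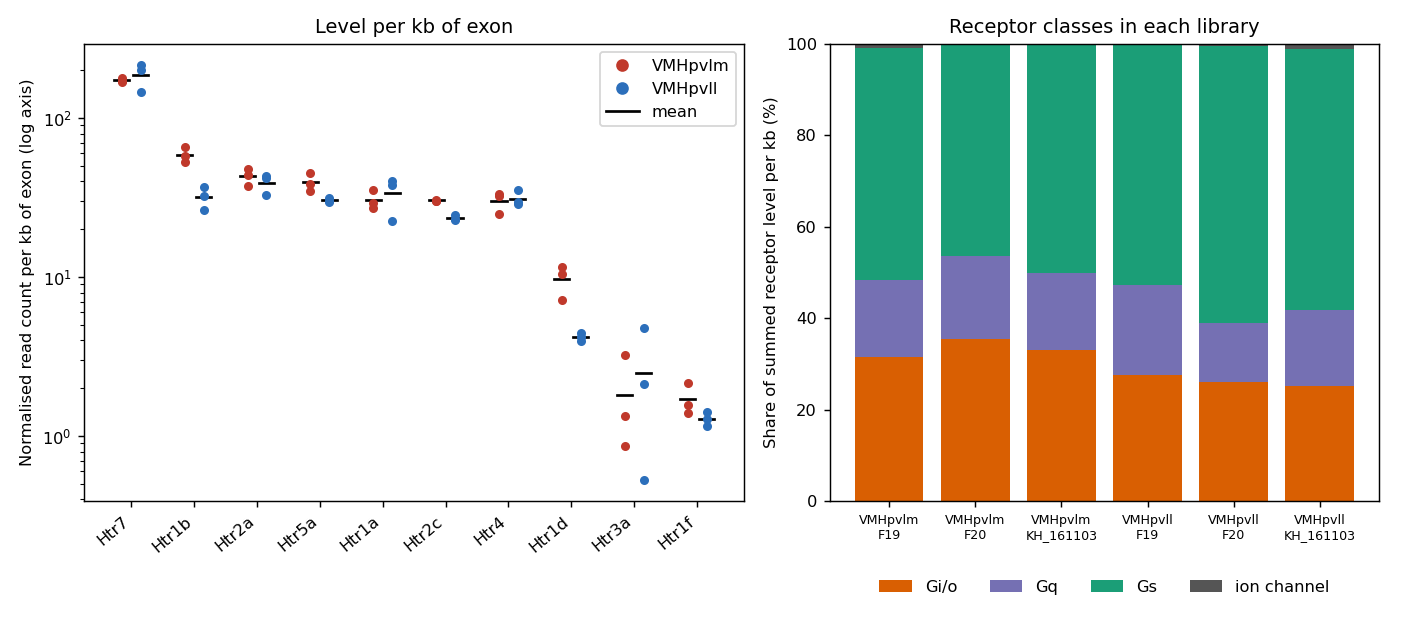
Left, normalised read count per kb of exon on a log axis for each member, with 1 point per library (red VMHpvlm, blue VMHpvll) and a line at the mean of 3 libraries. Right, share of the summed level per kb of 14 receptor genes held by each coupling class in each library: the Gi/o share was 31.5% to 35.5% in VMHpvlm and 25.3% to 27.6% in VMHpvll.

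Among genes for making, storing and clearing serotonin, Tph1, Tph2, Slc6a4, Slc18a1 and Slc18a2 were near 0 and too low to test. The other 10 were tested, among them Ddc, at 165 ± 18.3 in VMHpvlm and 152 ± 33.7 in VMHpvll (SD, n = 3), which was not called. Tph1 had 0 reads in every library. Tph2, the rate-limiting enzyme of serotonin synthesis in the brain, was at 1.38 ± 1.39 in VMHpvlm and 2.14 ± 0.627 in VMHpvll (SD, n = 3). The serotonin transporter Slc6a4 was at 0.765 ± 0.705 and 0.913 ± 1.58. Of the 15 genes of the list, 10 were tested, and 0 were called toward VMHpvlm and 2 toward VMHpvll, with a median log2 difference of -0.05 beside 0.00 for all tested genes. The genes called were Maoa, the monoamine oxidase that breaks down serotonin, at 600.0 ± 31.2 in VMHpvll against 481 ± 22.1 (limma log2 difference -0.32, Benjamini-Hochberg adjusted p = 0.000915), and Aldh2, an aldehyde dehydrogenase of the next step, at 583 ± 47.1 against 476 ± 44.5 (-0.29, adjusted p = 0.00266). Spr and Qdpr, enzymes of the cofactor that tryptophan hydroxylase needs, had log2 differences of -0.29 and -0.14 and were not called (adjusted p = 0.118 and 0.171). Both were called toward VMHpvll with libraries scaled to the same pan-neuronal sum (adjusted p = 0.0361 and 0.0199), which made the counts of this list 0 and 4.

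G protein subunits and effectors through which these receptors act differed in both directions. All 25 were tested, and 8 were called toward VMHpvlm and 5 toward VMHpvll, with a median log2 difference of 0.08. With libraries scaled to the same pan-neuronal sum the counts were 6 and 7. Plcb1 and Plcb4, phospholipases C downstream of Gq, were 1.71-fold and 1.66-fold higher in VMHpvlm, at 1615 ± 72.0 against 943 ± 58.7 and at 1489.6 ± 85.7 against 895 ± 58.3 (limma, Benjamini-Hochberg adjusted p = 4.73e-16 and 7.92e-15). Gnal, a Gs-like alpha subunit, was 1.35-fold higher in VMHpvll, at 1666 ± 88.4 against 1238 ± 82.4 (adjusted p = 7.06e-09), and 7.63% of its exon length overlaps Mppe1. The Gs alpha subunit gene Gnas went the other way, at 12868 ± 579 in VMHpvlm against 11417 ± 855 (log2 difference 0.17, limma adjusted p = 4.49e-06). Of its exon length, 13.1% overlaps Gm20721 and 8.83% overlaps Nespas. Kcnj3, a subunit of the potassium channels that Gi/o-coupled receptors open, was 1.71-fold higher in VMHpvlm, at 808 ± 66.6 against 472 ± 11.7 (adjusted p = 1.68e-12), and 31.1% of its exon length overlaps Gm26794. Its partner subunits, chosen after their values were seen, went both ways: Kcnj5 and Kcnj9 were higher in VMHpvlm (log2 differences 0.89 and 0.42) and Kcnj6 in VMHpvll (-0.36).

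Of 16 partners and regulators of the receptors, 15 were found and tested, and 3 were called toward VMHpvlm and 1 toward VMHpvll, with a median log2 difference of 0.05. Rgs4, which ends signalling by Gi/o and Gq proteins, was 1.96-fold higher in VMHpvll, at 4245 ± 293 against 2170.4 ± 192 (SD, n = 3; limma log2 difference -0.97, Benjamini-Hochberg adjusted p = 2.40e-23). Adar, an RNA-editing enzyme whose targets include the Htr2c transcript, was higher in VMHpvlm (2558 ± 45.9 against 2152 ± 188, log2 difference 0.25), and 16.8% of its exon length overlaps Chrnb2. Its relative Adarb2, for which no editing activity is known, was higher in VMHpvlm too (805 ± 39.2 against 564 ± 53.2, 0.52). With libraries scaled to the same pan-neuronal sum the counts were 2 and 4 and the median -0.024, as Mpdz, Dlg4 and Cav1 were then called toward VMHpvll (adjusted p = 0.0277, 0.0155 and 0.0429). Cc2d1b, a repressor of Htr1a transcription, had a log2 difference of 0.27 (adjusted p = 0.0449), a call lost with libraries scaled to the same upper quartile (0.0513) or pan-neuronal sum (0.157).

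**Figure D4:**
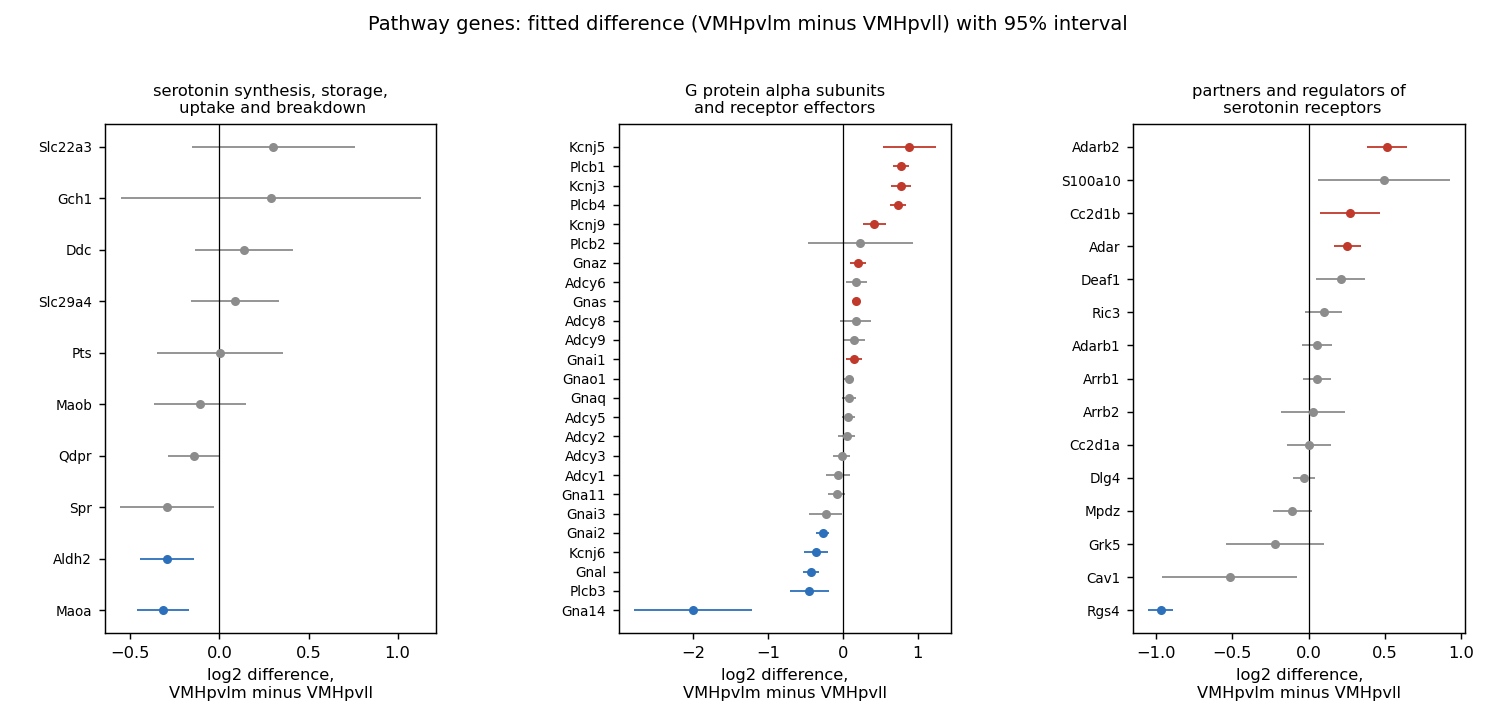
Fitted log2 difference (VMHpvlm minus VMHpvll) with 95% interval for the tested genes of 3 lists, 10, 25 and 15 genes. Red and blue points were called higher in VMHpvlm and in VMHpvll, with grey for genes that were not called: 0 and 2, 8 and 5, and 3 and 1 genes were called in the panels from left to right.

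The genes whose pattern was most like that of Htr1b over the 6 libraries were Shroom2, Slco4c1 and Zbtb18, with Pearson correlations of log2 values of 0.998, 0.997 and 0.997. Of 11126 genes compared, 270 had a correlation above 0.95, so with 6 libraries, which share their regions and scaling, these names are a description and no more. Their log2 differences between the regions, 0.32, 0.64 and 0.28, were smaller than that of Htr1b.

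Depth ran from 7157831 to 11293159 recovered reads per library. Both regions held VMH transcripts: Nr5a1 averaged 308 ± 19.5 in VMHpvlm against 31.5 ± 6.73 in VMHpvll, and Esr1 averaged 513 ± 74.0 against 1490.5 ± 63.8 (SD, n = 3). In captured tissue, fewer cells of a type and less RNA per cell cannot be told apart. Neuronal markers moved slightly with the receptors: 6 of 16 pan-neuronal genes were called toward VMHpvlm and 0 toward VMHpvll, and their sum ran from 112023 to 118385 in VMHpvlm and from 104663 to 113519 in VMHpvll. With libraries scaled to that sum, the log2 differences of Htr1b, Htr1d, Htr2c and Htr5a were 0.81, 1.05, 0.29 and 0.29, and the first 3 of these genes were still called. Over all genes the same scaling turned the split of calls from 1528 toward VMHpvlm and 1377 toward VMHpvll to 991 and 2269.

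Markers of other cells also moved with region. Of 8 VMH markers, 6 were higher in VMHpvlm and 1 in VMHpvll (sums of 9775 to 10144 against 8541 to 9026), and of 7 VMHvl markers 1 and 4 (4056 to 4711 against 8843 to 9497). GABAergic markers were higher in VMHpvll in 7 of 8 tested genes and in VMHpvlm in 0 (2749.7 to 3035 against 4244 to 4828), oligodendrocyte markers in 8 of 9 and 0 (11388 to 13081 against 15478.5 to 16578), astrocyte markers in 4 of 7 and 0 (25909 to 28299.5 against 31344 to 36209) and vascular markers in 6 of 8 and 0 (1576 to 1860.0 against 2331 to 2612). No direction had a called gene among 8 microglia markers (0 by limma), whose sums were 960.3 to 1045 against 1039.8 to 1175, and of 5 tested arcuate markers 2 were higher in each region, with sums of 371 to 618 against 313 to 392.4. Among the arcuate markers Pomc averaged 206 ± 115 in VMHpvlm against 47.8 ± 31.0 in VMHpvll and Npy 25.6 ± 14.2 against 6.36 ± 3.02 (SD, n = 3). Both were higher in VMHpvlm, like the called receptors, in 3 of 3 pairs (log2 differences 2.21 and 1.83). Th and Ghrh of the same list went the other way and were higher in VMHpvll in 3 of 3 pairs (log2 differences -1.79 and -1.65). The part of these cells in the receptor differences was not tested. Choroid plexus is rich in Htr2c, and its defining marker Ttr was at 0 in the VMHpvll libraries and averaged 0.754 in VMHpvlm. Kcnj13 and Otx2 were at 0 in all libraries, and 2 of the 7 genes of that list, Kl and Clic6, were tested. Kl was called toward VMHpvll and Clic6 toward VMHpvlm, like Htr2c (log2 differences -0.79 and 0.67). Sums of the list were 346 to 452 against 412 to 435. The part of choroid plexus in the Htr2c difference was not tested. Of 5 markers of serotonin neurons none was high enough to be tested, with sums of 6.36 to 12.2 against 4.47 to 11.0 and Gata3 at 0.

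**Figure D5:**
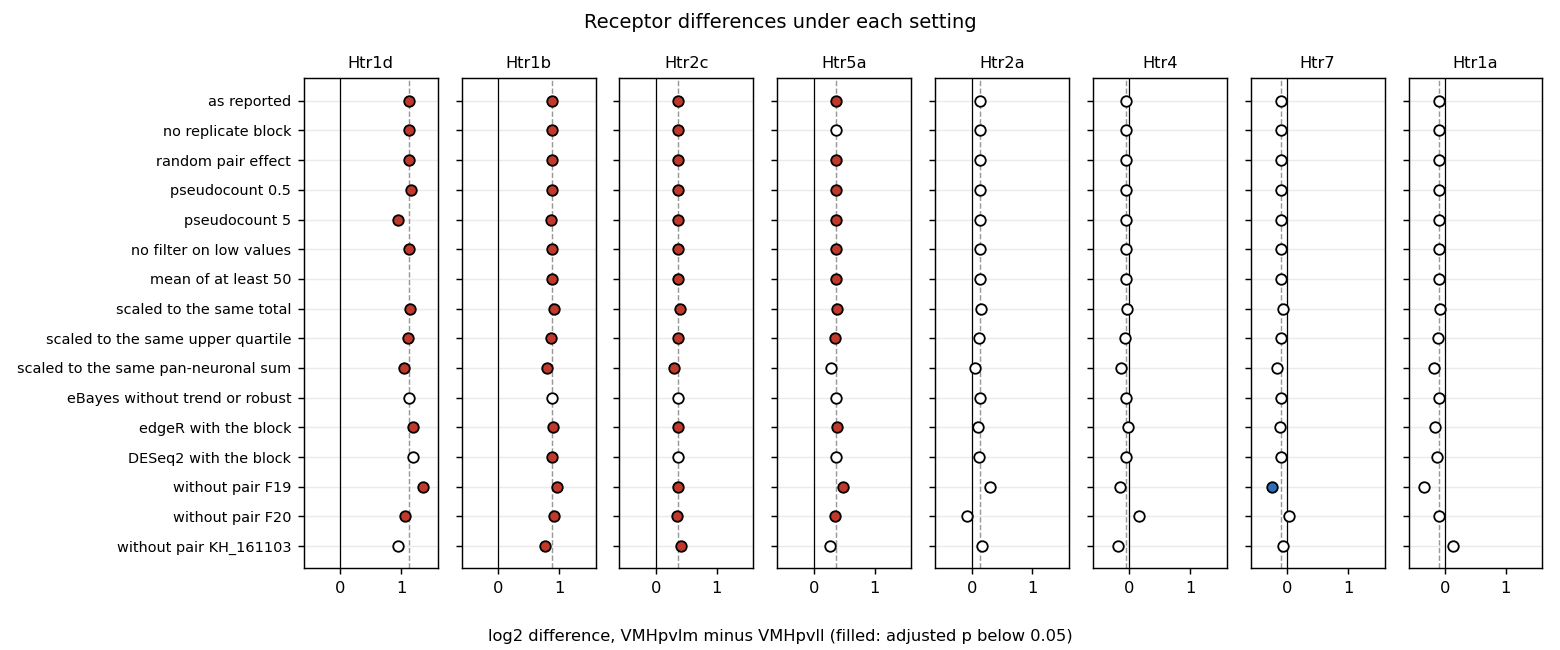
Log2 difference (VMHpvlm minus VMHpvll) of the 8 tested members under the reported setting and 15 alternatives, with filled circles where the adjusted p was below 0.05 (red higher in VMHpvlm, blue in VMHpvll) and a dashed line at the reported value. The circles of Htr1b, Htr1d, Htr2c and Htr5a lie above 0 in every row that has one, and those of Htr1a, Htr2a, Htr4 and Htr7 fall on both sides of 0.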

How the data were processed

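RNA of laser-captured VMHpvlm and VMHpvll was sequenced with a stranded total RNA kit, per the labels' protocols, in 3 libraries per region. The submitters' processing notes name HISAT2, featureCounts and mm10. Annotation, strand setting and scaling tool: not given in the sources used here. The deposited values are a normalised signal, gene counts divided by 1 factor per library: divided by what 1 read is worth, 100% came out whole (tolerance 0.05 reads). The fit used limma 3.58.1 in R 4.3.3 (eBayes with trend and robust) on log2(value + 1) for 14522 genes (mean 10 or more), with region and shared title name as terms. This leaves 2 residual degrees of freedom, to which the prior added a median of 39.9. The names were taken to pair the libraries because they recur in both regions. Deviations from region means correlated at 0.24 to 0.36 within a name and at -0.25 to 0.01 between names. Deviations within a region cancel by construction, so the correlations within and between names are not independent of each other. Libraries of a region differed by more than sampling noise (chi-square per degree of freedom 5.54 to 9.83).

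Alternatives were pseudocounts of 0.5 and 5, a pair effect taken as random, no block, no filter or a mean of 50 or more, 3 other scalings, no trend or robust, each pair left out, and tests of the recovered reads with edgeR 4.0.16, which called 1437 genes toward VMHpvlm and 1436 toward VMHpvll, or with DESeq2 1.42.0. The limma step was tested on simulated data. Positions, exon lengths and overlaps came from GENCODE M21 (mm10), promoter sequences from RefSeq (GRCm38.p6). The members and lists were chosen with earlier results of these data known. Named were all members, the 4 other receptor genes and the 4 genes of smallest p of each pathway list. So were the first markers of cell lists and the 3 genes most like Htr1b. Tph1, Ddc, Slc18a1, Slc18a2, Mpdz, Dlg4, Cav1, Ghrh, Th, Gata3, Kcnj13, Clic6 and Otx2 were added after their values were seen. The same holds for Gnas, Gna14, Gnaq, Gna11, Plcb2, Plcb3, Kcnj5, Kcnj6 and Kcnj9.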

Additional observations from a re-analysis of the deposited data

How the results depend on the processing

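The log2 differences of Htr1b, Htr1d, Htr2c and Htr5a kept their sign in all alternatives run, with ranges of 0.77 to 0.97, 0.95 to 1.36, 0.29 to 0.40 and 0.26 to 0.48; Htr1d has no value with a mean of at least 50. The number of members called toward VMHpvlm was 4, and 0 without trend or robust in limma's variance prior (4 at an unadjusted p below 0.05), 1 with DESeq2 and 2 to 4 when each pair was left out; toward VMHpvll it was 0, and 0 to 1 when each pair was left out. Without the replicate block 3 members were called, all but Htr5a, and the block changed no other call of a member. Signs of members that were not called turned without KH_161103 for Htr1a (0.13) and without F20 for Htr2a (-0.073), Htr4 (0.16) and Htr7 (0.022); with each pair left out, values ran from -0.34 to 0.13, -0.073 to 0.30, -0.19 to 0.16 and -0.25 to 0.022. Over all genes, calls toward VMHpvlm and VMHpvll were 937 and 863 without the replicate block, 991 and 2269 with the same pan-neuronal sum, 189 and 233 without trend or robust, 648 and 582 with DESeq2, and 935 to 1511 and 838 to 1361 when each pair was left out. Without division by exon length, the Gi/o share was 28.0% in VMHpvll, the Gq shares 27.1% in VMHpvlm and 25.7% in VMHpvll and the Gs shares 38.5% and 46.0%; without Htr1b the Gi/o shares were 22.5% and 19.6%. Leaving out F20 changed the counts little (1511 and 1361), and leaving out KH_161103 gave the lowest (935 and 838); the cause was not tested for any of these changes. Depth limits Htr1d, Htr1f, Htr3a and Htr6, which have at most 41 reads in any library.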
